A study of Bos taurus with 24 samples.

Results

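The breeds compared here were Holstein (HOLS) and Montbéliarde (MONT) dairy cows, and the question was how the mammary miRNomes of the 2 breeds differed at the end of a feed restriction. The 11 libraries of the comparison are those taken after the restriction (REST), 5 from HOLS and 6 from MONT, out of the 22 libraries with counts in the deposited tables, and they were chosen by the labels for breed and restriction status. All cows were multiparous, lactating and in midlactation. Each ate freely during a control period (CONT) and then received a reduced ration for 6 days, set in the labels at 60% of the net energy of lactation. The methods text puts the ration at a smaller share than the labels do. Biopsies for CONT and REST were taken on days 0 and 6 from opposite rear sides of the udder. Each REST library is therefore 1 cow, and no cow belongs to both breeds. Both groups share the restriction protocol, midlactation and the tissue. The study reported a larger fall of energy balance in HOLS than in MONT, and its mean parity and days in milk also differ between the breeds. What part these had in the breed differences below was not tested. A biopsy holds every cell type of the gland, so fewer cells of a type and less RNA per cell cannot be told apart in any value below.

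MicroRNAs (miRNAs) are short RNAs that pair with messenger RNAs and lower their stability or translation. Several are made almost only in some cell types, such as the miR-200 family in epithelium, miR-199a and miR-214 in mesenchymal cells and miR-126 in endothelium, so that a tissue profile reflects both the regulation inside cells and the make-up of the tissue. Many are also transcribed as clusters from one primary transcript, and members of a family share the seed that selects the targets. In the lactating gland the milk-secreting alveolar epithelium is wrapped in myoepithelial cells and lies in a stroma with vessels and leukocytes.

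The total of miRNA counts ranged from 11108829 to 18149037 per library in HOLS REST and from 7817027 to 18913916 in MONT REST. The mean totals of 15145113 and 11963644 did not differ beyond the spread between cows (two-sided exact permutation test, p = 0.1775 over 462 regroupings). Of the 796 miRNAs listed, 761 had a count in at least 1 of the 11 libraries and 378 passed the filter on low counts, and the latter held 99.995% of all counts. Levels are given as CPM, the counts scaled to a TMM-adjusted library size of 1000000, with 1 common scaling over both breeds. Correlations of log2 CPM between libraries were 0.9909 to 0.9953 within HOLS, 0.974 to 0.9928 within MONT and 0.9647 to 0.9928 between breeds. On the first axis of the profiles the HOLS libraries lay between -6.61 and -3.60 and the MONT libraries between -1.91 and 13.0. The MONT libraries of cows 1652 and 2614 stood apart, at 13.0 and 7.43, and calls that were lost without them are named below. Epithelial miR-141 and myoepithelial and smooth muscle miR-143 were abundant in every library, and the liver marker miR-122 was at no more than 0.244 CPM. Of nervous system miRNAs, miR-124a and miR-124b together were at no more than 1.81 CPM, while miR-9 reached 12.4 CPM in cow 1652.

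**Figure D1:**
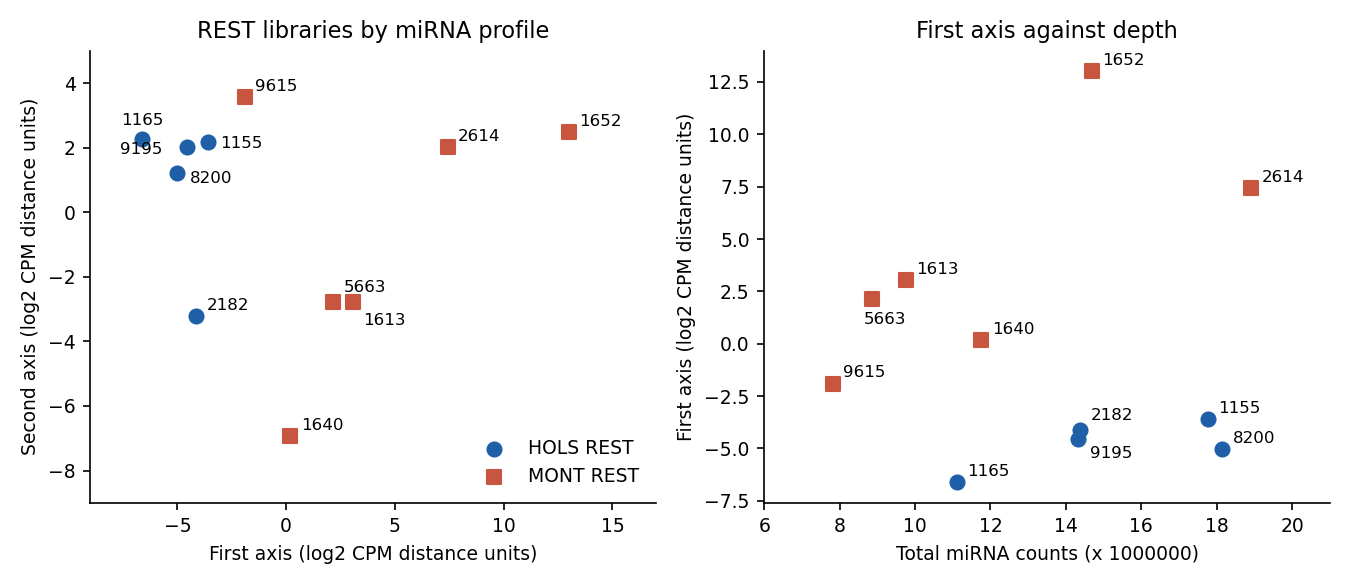
Position of the 11 REST libraries on the first and second axes of the miRNA profiles (left, log2 CPM distance units) and the first axis against the total of miRNA counts, in units of 1000000 (right). Circles are HOLS cows and squares MONT cows, labelled with the cow number. On the first axis the HOLS libraries lie between -6.61 and -3.60 and the MONT libraries between -1.91 and 13.0, with cows 1652 and 2614 farthest out.

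After restriction 58 of the 378 miRNAs tested (15.3%) differed between the breeds at an adjusted p of at most 0.05 (edgeR quasi-likelihood test with Benjamini-Hochberg adjustment). HOLS had higher levels of 21 (5.56%) and lower levels of 37 (9.79%). Log2 fold changes of HOLS over MONT ran from 0.42 to 2.51 among the higher and from -2.47 to -0.58 among the lower miRNAs. Over all tested miRNAs the median log2 fold change was -0.03, with 179 positive and 199 negative values. The adjusted p of the 58 lay between 0.00764 and 0.0492, and 125 miRNAs had an unadjusted p under 0.05. CPM of the breeds did not overlap for 34 miRNAs (8.99%), 28 of them among the 58. Without the MONT libraries of cows 1652 and 2614 the count was 39, with 9 higher and 30 lower in HOLS, and 34 of the 39 were among the 58. The 24 calls lost in that fit kept their sign, with adjusted p values from 0.0536 to 0.165 (edgeR): miR-126-3p, miR-1271, miR-141, miR-146b, miR-148b, miR-181b, miR-181d, miR-196b, miR-200c, miR-2284ab, miR-2285af, miR-299, miR-29c, miR-30e-5p, miR-30f, miR-362-5p, miR-379, miR-628, miR-708, miR-9, miR-99a-3p, miR-99a-5p, miR-99b and chr19_20878. Without the HOLS library of cow 1165 it was 38.

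**Figure D2:**
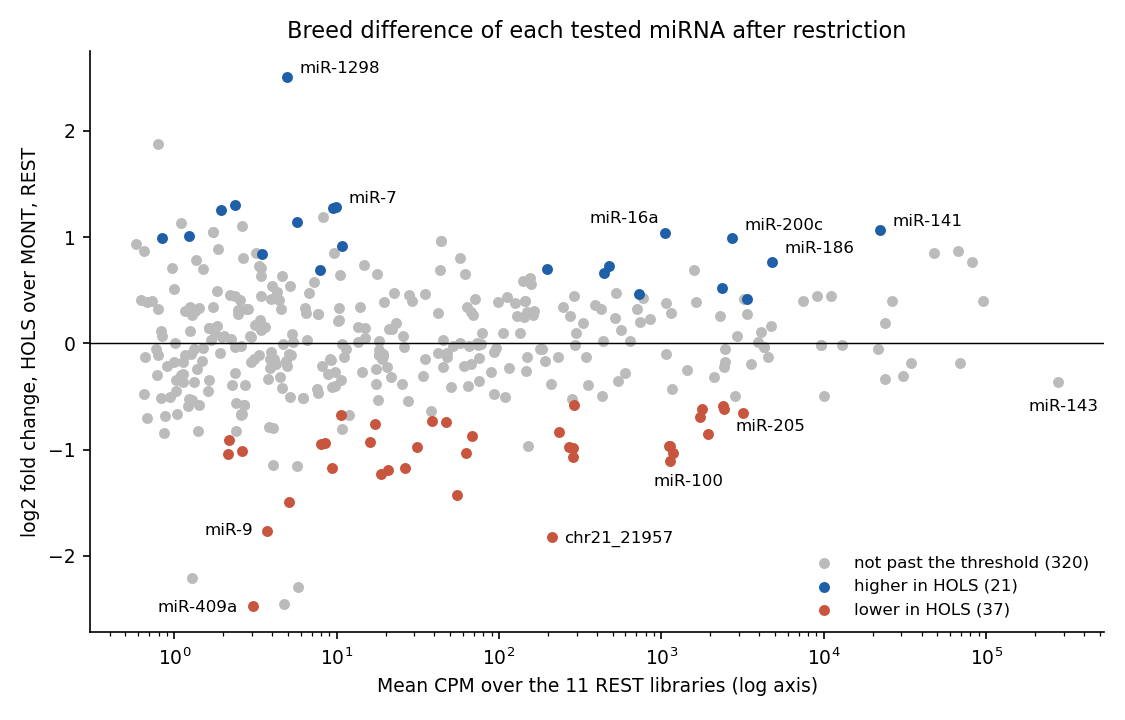
Log2 fold change of HOLS over MONT in REST against the mean CPM over the 11 REST libraries (log axis) for the 378 tested miRNAs. Blue points are the 21 miRNAs higher in HOLS, red points the 37 lower in HOLS and grey points the 320 that did not pass the threshold, and calls occur from about the lowest tested levels up to miR-141, while miR-143, the most counted miRNA, is grey.

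Among miRNAs higher in HOLS, miR-16a and miR-186 had the lowest adjusted p values and high levels. The seed of miR-16a is that of the miR-15/16 family, known for repressing BCL2 and cyclins. Its level in HOLS was 1814, 1276, 1580, 1601 and 975 CPM in cows 1165, 8200, 9195, 1155 and 2182, and in MONT it ran from 563 to 874 CPM with a median of 703. Every HOLS cow lay above every MONT cow, and the lowest HOLS value was that of cow 2182. The log2 fold change was 1.04 ± 0.17 (SE, n = 5 and 6, edgeR adjusted p = 0.00764). MiR-186 was at 6968, 6621, 5869, 5910 and 5699 CPM in the same order of HOLS cows and at 2969 to 4042 CPM in MONT, with a median of 3907. These groups did not overlap and both were narrow, with 6213 ± 550 CPM in HOLS and 3648 ± 508 CPM in MONT (SD). Its log2 fold change was 0.77 ± 0.13 (SE, edgeR adjusted p = 0.00764). The other tested members of the miR-15/16 family did not pass the threshold: miR-16b was at a log2 fold change of 0.42 (edgeR adjusted p = 0.0524) and miR-15a, miR-15b, miR-195, miR-424-5p and miR-497 lay between -0.22 and 0.25.

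Larger fold changes in the same direction were found at lower levels. MiR-7, a repressor of the EGF receptor, was at 15.6, 16.6, 17.1, 15.9 and 7.99 CPM in HOLS and at 4.49 to 7.86 CPM in MONT, with a median of 5.97. Only cow 2182 came near the MONT range, and the log2 fold change was 1.28 ± 0.24 (SE, edgeR adjusted p = 0.00850). MiR-190a, which lies in an intron of the talin gene TLN2, was at 17.3, 17.2, 14.5, 10.97 and 9.70 CPM in HOLS and at 4.09 to 7.26 CPM in MONT (median 5.68). The groups again did not overlap, with a log2 fold change of 1.27 ± 0.22 (SE, edgeR adjusted p = 0.00813). MiR-1298 had the largest positive fold change of the 58. It was at 11.8, 10.7, 4.30, 9.82 and 7.85 CPM in HOLS and at 0 to 2.73 CPM in MONT, with a median of 1.85 and no count in cow 1613. The groups did not overlap, and the log2 fold change was 2.51 ± 0.56 (SE, edgeR adjusted p = 0.0135). MiR-628 was at 4.54 ± 0.33 CPM in HOLS and 2.55 ± 0.71 CPM in MONT (SD), a log2 fold change of 0.84 (edgeR adjusted p = 0.0226) that was lost without cows 1652 and 2614. The predicted miRNA chr19_20878, named after its values were seen, was also higher, with a log2 fold change of 1.14 (edgeR adjusted p = 0.0276) and a HOLS range of 3.99 to 16.7 CPM that overlapped the MONT range of 3.18 to 4.41 CPM.

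MiRNAs of the miR-10 and miR-125 families that are encoded in the let-7 clusters were lower in HOLS. MiR-100 and the miR-99 miRNAs share a seed and are known to target MTOR, and miR-125a and miR-125b are the mammalian relatives of the lin-4 RNA of worms. MiR-100 was at 780, 711, 777, 687 and 526.4 CPM in HOLS and at 907 to 1982 CPM in MONT, with a median of 1555. All MONT cows lay above all HOLS cows, and the log2 fold change was -1.11 ± 0.22 (SE, edgeR adjusted p = 0.00980). MiR-99a-5p was at 1487, 1432, 1485, 1516 and 975 CPM in HOLS and at 1671 to 2761 CPM in MONT (median 2151), a log2 fold change of -0.62 ± 0.16 (SE, edgeR adjusted p = 0.0233). These groups did not overlap, with the lowest value in HOLS cow 2182. MiR-125b was at 1162, 1405, 1300, 1524 and 1317 CPM in HOLS and at 1462 to 3403 CPM in MONT (median 2418). One MONT library, that of cow 9615, lay inside the HOLS range, and the log2 fold change was -0.85 ± 0.18 (SE, edgeR adjusted p = 0.0115).

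The neighbouring miRNAs of these loci had the same direction. MiR-125a was lower by a log2 fold change of -0.66 (edgeR adjusted p = 0.0233), miR-99b by -0.69 (edgeR adjusted p = 0.0327), let-7c by -0.62 (edgeR adjusted p = 0.0289) and miR-99a-3p, the other strand of the miR-99a hairpin and named after its values were seen, by -0.67 (edgeR adjusted p = 0.0312). In the miR-10 family list 3 of the 5 tested miRNAs were lower in HOLS, miR-100, miR-99a-5p and miR-99b, as were both of the miR-125 list. Over all tested miRNAs 9.79% were lower. The list medians were -0.62 and -0.75 beside -0.03 over all miRNAs. Since miR-99b and miR-125a are neighbours, the lists are not independent. MiR-10a and miR-10b, which lie in the Hox clusters, had log2 fold changes of 0.16 and 0.40 and did not pass the threshold. In the let-7 list let-7c was the 1 of 9 tested miRNAs that passed, beside 15.3% over all tested miRNAs, and the list median was -0.01. Without cows 1652 and 2614 the miR-10 list held 1 lower miRNA, miR-100, while the miR-125 list held both. The call of miR-99b was lost in 10 of the 27 other settings, among them those without cow 1652 or 2614.

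Markers of mesenchymal cells were also lower in HOLS. Of the 5 tested miRNAs of the stroma list, 4 were lower and none was higher. The shares over all tested miRNAs were 9.79% lower and 5.56% higher. Among the 4, miR-199a-3p, miR-199a-5p and miR-214 come from the same or neighbouring hairpin genes and are not independent. The remaining miR-199c had its lowest and highest values in the same cows as miR-199a-3p. These were 4.52 CPM in HOLS cow 1165 and 15.0 CPM in MONT cow 1652. Whether miR-199c is a separate measurement was not tested. The median log2 fold change of the list was -0.97. MiR-199a-3p was at 525.9, 702, 768, 760 and 973 CPM in HOLS and at 818 to 2172 CPM in MONT (median 1452). The ranges overlapped by HOLS cow 2182 and MONT cow 9615, and the log2 fold change was -0.97 ± 0.23 (SE, edgeR adjusted p = 0.0148). MiR-199a-5p, from the other arm of the same hairpin, was at 156, 209, 182, 211 and 179 CPM in HOLS and at 236 to 569 CPM in MONT (median 362). Here the groups did not overlap, with a log2 fold change of -0.98 ± 0.21 (SE, edgeR adjusted p = 0.0115). MiR-214 was at 11.9, 15.5, 18.2, 16.6 and 15.8 CPM in HOLS and at 17.4 to 54.1 CPM in MONT (median 29.5). The lowest MONT cow, 1640, lay just under the highest HOLS cow, and the log2 fold change was -1.17 ± 0.28 (SE, edgeR adjusted p = 0.0148).

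MiR-199c followed at -0.94 (edgeR adjusted p = 0.0221) and miR-199b was at -0.53 (edgeR adjusted p = 0.0755). The summed level of the list ran from 874 to 1435 CPM in HOLS and from 1290 to 3267 CPM in MONT. MiR-3604, for which the counts of miR-199a-3p were 1.01 to 1.02 times as high in every library, and miR-3120, which shares the locus of miR-214, were lower by log2 fold changes of -0.97 and -1.18 (edgeR adjusted p = 0.0148 and 0.0115). Both were named after their values were seen, and miR-3604 is no separate measurement. The stroma list held 4 lower miRNAs without cow 1652 and 4 without cows 1652 and 2614.

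MiR-221 and miR-222, a tandem pair known to repress KIT and the cell cycle inhibitor CDKN1B, were both lower in HOLS. MiR-221 was at 158, 147, 183, 155 and 182 CPM in HOLS and at 207 to 441 CPM in MONT (median 266), and miR-222 at 26.0, 27.4, 27.2, 31.5 and 29.6 CPM in HOLS and at 31.6 to 75.1 CPM in MONT (median 41.8). Neither miRNA overlapped between the breeds, although the lowest MONT value of miR-222 lay next to the highest HOLS value. The log2 fold changes were -0.83 ± 0.18 and -0.73 ± 0.20 (SE, edgeR adjusted p = 0.0115 and 0.0267).

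Markers of epithelium did not move together. Of 9 tested, miR-200c and miR-141 were higher in HOLS, miR-205 was lower and 6 did not pass. Over all tested miRNAs 5.56% were higher and 9.79% lower. The median log2 fold change of the 9 was 0.34. MiR-200c and miR-141 are made from one transcript, and the miR-200 family is known for keeping the epithelial state through repression of ZEB1 and ZEB2. MiR-200c was at 3818, 4345, 3382, 4129 and 2950 CPM in HOLS and at 721 to 3248 CPM in MONT (median 1991). Only MONT cow 9615 reached the HOLS range, and the log2 fold change was 0.99 ± 0.30 (SE, edgeR adjusted p = 0.0403). MiR-141 was at 44029, 31699, 30552, 32280 and 15935 CPM in HOLS and at 6723 to 23720 CPM in MONT (median 14379), a log2 fold change of 1.06 ± 0.33 (SE, edgeR adjusted p = 0.0452). HOLS cow 2182 lay inside the MONT range, and cows 1652 and 2614 had the lowest values of both miRNAs. Neither call was kept without cows 1652 and 2614, where the epithelium list held no higher miRNA and 1 lower.

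The other cluster of the family, miR-200a, miR-200b and miR-429, had log2 fold changes of 0.38, 0.23 and 0.44, and miR-182, miR-183 and miR-96 had -0.18, 0.34 and 0.13. MiR-205, made mainly in basal epithelial cells, was at 1545, 1702, 1903, 1941 and 2310 CPM in HOLS and at 2121 to 3414 CPM in MONT (median 2848). The ranges overlapped slightly, by HOLS cow 2182 and MONT cow 9615, and the log2 fold change was -0.59 ± 0.16 (SE, edgeR adjusted p = 0.0259). This call was also made without cows 1652 and 2614. The summed level of the epithelium list ran from 27359 to 54153 CPM in HOLS and from 15388 to 34289 CPM in MONT.

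**Figure D3:**
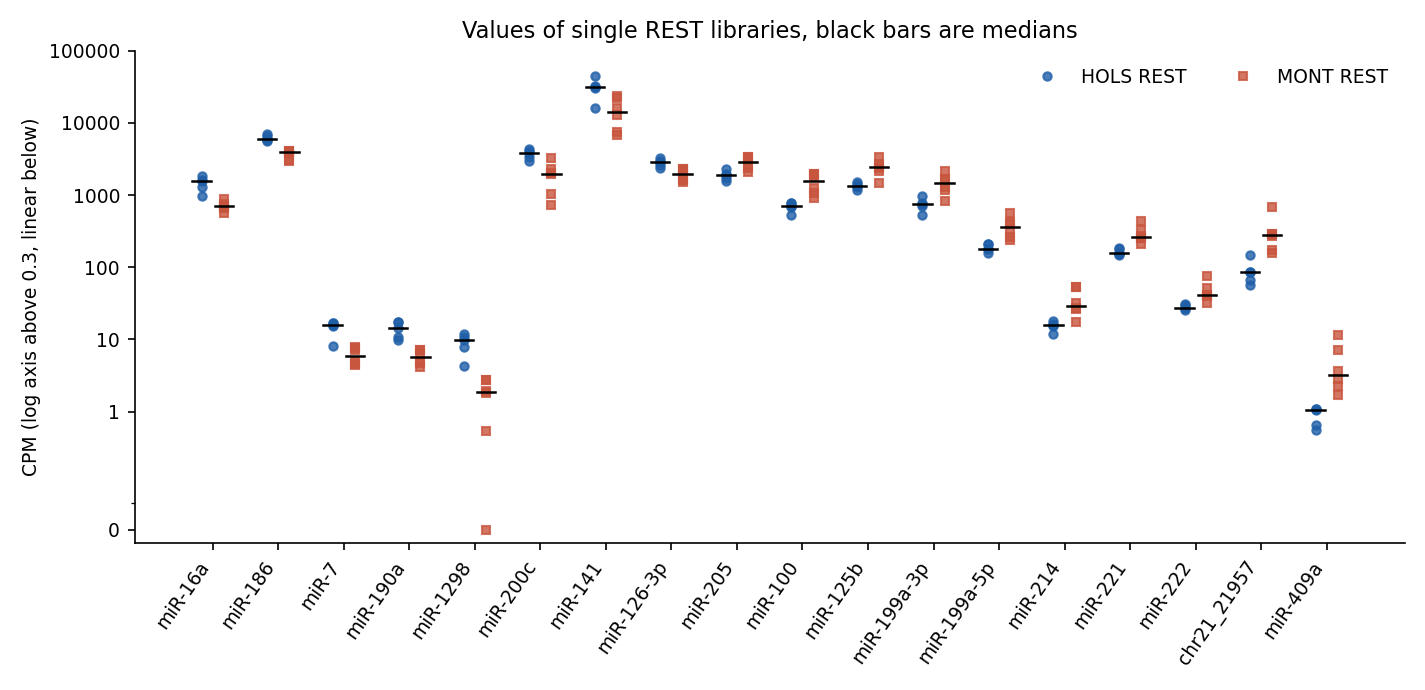
CPM of 18 miRNAs in each of the 5 HOLS (circles) and 6 MONT (squares) REST libraries, on a log axis that is linear below 0.3, with black bars at the medians. The HOLS points of miR-16a, miR-186, miR-190a and miR-7 lie above all MONT points, those of miR-100, miR-221, miR-222, miR-199a-5p, chr21_21957 and miR-409a lie below, and those of miR-141, miR-205, miR-125b and miR-214 overlap.

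Of the tested endothelial, leukocyte, red blood cell and muscle markers, only miR-126-3p and miR-146b passed the threshold. With 15.3% of all tested miRNAs past it, lists this short would hold few calls in any case. For endothelium, miR-126-3p was at 3288, 2363, 2585, 2962 and 2870 CPM in HOLS and at 1524 to 2335 CPM in MONT (median 1985), a log2 fold change of 0.53 ± 0.15 (SE, edgeR adjusted p = 0.0301). The groups did not overlap, but the lowest HOLS and the highest MONT value were next to each other, and the call was lost in 11 of the 27 other settings. The other arm, miR-126-5p, had a log2 fold change of 0.40 (edgeR adjusted p = 0.120), and the summed level of the pair was 28202 to 39248 CPM in HOLS and 18017 to 30147 CPM in MONT. Of 7 leukocyte markers only miR-146b, a negative regulator in NF-κB signalling, passed, a count near that share. MiR-146b was lower in HOLS, at 748 ± 319 CPM against 1531 ± 565 CPM in MONT (SD). Its log2 fold change was -1.03 (edgeR adjusted p = 0.0403), a call that was lost without cow 1652. The leukocyte-specific miR-142-3p and miR-142-5p were at -0.04 and -0.05, miR-155 at -0.26, miR-150 at -0.51 and miR-223 at 0.85, none past the threshold, and the summed level of the 7 was 2436 to 5618 CPM in HOLS and 2792 to 6358 CPM in MONT.

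Neither the 3 red blood cell markers nor the 2 tested skeletal muscle markers passed. Red blood cell miRNAs miR-451, miR-144 and miR-486 had log2 fold changes of 0.59, 0.33 and 0.42, with summed levels of 3283 to 4268 CPM in HOLS and 1175 to 4263 CPM in MONT. For skeletal muscle, miR-1 and miR-133a were at -0.42 and -0.36, with summed levels of 36.8 to 112 CPM in HOLS and 48.7 to 142.9 CPM in MONT. Of the smooth muscle and myoepithelial pair, miR-143 and miR-145 had log2 fold changes of -0.36 and 0.37. What part the cellular make-up of the biopsies had in the differences was not tested.

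The most counted miRNA was miR-143 in both breeds. It held 18.7% to 25.2% of the counts in HOLS libraries and 25.8% to 42.5% in MONT libraries, so the shares of the breeds did not overlap, with means of 22.8% ± 2.59 and 31.2% ± 6.19 (SD). On the TMM scale its CPM overlapped and its log2 fold change of -0.36 ± 0.19 did not pass (SE, edgeR adjusted p = 0.202). Next in HOLS came miR-10b, miR-30a-5p, miR-148a and miR-26a, and next in MONT miR-10b, miR-26a, miR-30a-5p and miR-148a. MiR-148a, abundant in milk and in the mammary gland, was at 91287, 87651, 86969, 88098 and 91350 CPM in HOLS and at 17058 to 83143 CPM in MONT (median 46477). The HOLS cows were almost alike and all above the MONT cows, which spread widely, with 89071 ± 2091 against 48652 ± 24357 CPM (SD). Its log2 fold change of 0.87 ± 0.31 did not pass the threshold (SE, edgeR adjusted p = 0.0686). MiR-30a-5p was at 69066 to 136120 CPM in HOLS and at 34551 to 101290 CPM in MONT, a log2 fold change of 0.77 ± 0.26 (SE, edgeR adjusted p = 0.0613).

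All 6 tested miR-30 miRNAs and all 5 of the list of miR-148 and miR-152 had positive log2 fold changes, with medians of 0.41 and 0.73 beside -0.03 over all miRNAs. In the miR-30 list miR-30e-5p and miR-30f passed, higher in HOLS, beside 5.56% higher over all tested miRNAs. MiR-30e-5p was at 4135, 3936, 3581, 4089 and 3742 CPM in HOLS and at 2794 to 3074 CPM in MONT (median 2867). These narrow groups did not overlap, and the log2 fold change was 0.42 ± 0.10 (SE, edgeR adjusted p = 0.0163), the smallest among the 21 higher miRNAs. MiR-30f had a log2 fold change of 0.70 ± 0.18 (SE, edgeR adjusted p = 0.0226). MiR-148b was the 1 miRNA of its list past the threshold, with 603 ± 213 CPM in HOLS and 364 ± 51.0 CPM in MONT (SD) and a log2 fold change of 0.73 (edgeR adjusted p = 0.0276). Without cows 1652 and 2614 no miRNA of either list passed and the medians were 0.30 and 0.47. Members of these lists are not independent, since miR-148d and miR-148a, and miR-148c and miR-152, kept nearly fixed ratios of counts over the 11 libraries.

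Families with mixed directions were miR-29 and miR-181. MiR-29c, of a family known for repressing collagens, was higher in HOLS, at 650, 645, 504, 497 and 473 CPM against 238 to 470 CPM in MONT (median 349), whereas miR-29d-3p was lower at a low level, 1.69 ± 0.32 against 3.40 ± 1.05 CPM (SD). The HOLS and MONT values of miR-29c did not overlap but met at 473 and 470 CPM. The log2 fold changes were 0.67 ± 0.19 and -1.02 ± 0.26 (SE, edgeR adjusted p = 0.0301 and 0.0223), the first of which did not pass without cows 1652 and 2614, and miR-29a and miR-29b were at -0.10 and 0.35. In the miR-181 family the cluster of miR-181c and miR-181d was lower in HOLS, by log2 fold changes of -1.06 and -0.98 (edgeR adjusted p = 0.0289 and 0.0492). MiR-181c was at 171, 135, 170, 198 and 218 CPM in HOLS and at 189 to 788 CPM in MONT (median 316), with the far value in cow 1652. MiR-181b was higher, with 859 ± 139 against 622 ± 55.5 CPM (SD) and a log2 fold change of 0.47 (edgeR adjusted p = 0.0283), and the abundant miR-181a was at -0.34 and did not pass. Without cows 1652 and 2614 only 1 of the 4, miR-181c, passed.

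No miRNA passed in the lists of the miR-26 family, the miR-23/27/24 clusters and miR-17-92 with its paralogs. Tested were 3, 4 and 14, with medians of -0.18, -0.28 and -0.06. Over all tested miRNAs 15.3% passed, so lists as short as those of this paragraph would hold few calls in any case. MiR-26a and miR-26c, both at -0.18, kept a fixed ratio of counts and are no separate measurements. The other miRNA of that list, miR-26b, was at 0.45 and did not pass. The 5 miRNAs hosted by genes of energy and lipid metabolism, miR-33a, miR-33b, miR-103, miR-107 and miR-378, had log2 fold changes from -0.22 to 0.39, and none passed. MiR-103 had CPM that did not overlap, 1877 ± 72.3 in HOLS and 1437 ± 281 in MONT (SD), without passing the threshold (edgeR adjusted p = 0.0806). Of the 6 tested miRNAs of the cluster of miR-500, miR-532 and miR-660 all had positive log2 fold changes with a median of 0.33, and miR-362-5p passed at 0.69 (edgeR adjusted p = 0.0276) but not without cows 1652 and 2614.

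The imprinted DLK1-DIO3 region, expressed from the maternal chromosome, encodes one of the largest miRNA clusters of mammals. Of its 44 listed miRNAs 28 were tested, 3 were lower in HOLS and none was higher, a count of lower miRNAs near the 9.79% over all tested miRNAs. The median log2 fold change was -0.41 and 22 of the 28 were negative, but without cow 1652 the median was -0.19. Without cows 1652 and 2614 it was -0.04, and miR-409a was the 1 miRNA of the list that still passed. MiR-409a was the lowest of all 58, at 1.06, 0.648, 0.548, 1.10 and 1.09 CPM in HOLS and at 1.70 to 11.4 CPM in MONT (median 3.25). The breeds did not overlap and the highest MONT values were those of cows 1652 and 2614. The log2 fold change was -2.47 ± 0.49 (SE, edgeR adjusted p = 0.0101). MiR-379 was at 40.2 ± 5.87 CPM in HOLS and 81.8 ± 44.7 CPM in MONT (SD), a log2 fold change of -1.03 (edgeR adjusted p = 0.0403) that was lost without cow 1652. MiR-299, at 1.44, 1.40, 1.25, 1.46 and 1.84 CPM in HOLS and at 1.93 to 3.81 CPM in MONT (median 2.79), had a log2 fold change of -0.91 ± 0.24 (SE, edgeR adjusted p = 0.0223), and of -0.81 without cows 1652 and 2614 (edgeR adjusted p = 0.0536). MiR-299-2 was lower too (-1.04, edgeR adjusted p = 0.0168), but its counts differed from those of miR-299 by at most 4 in a library and it is no separate measurement. MiR-127, the most counted of the cluster, was at -0.50 and did not pass (edgeR adjusted p = 0.116).

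The family of miR-2284 and miR-2285 is a large group of miRNAs found in ruminants. Of its 113 listed miRNAs 26 were tested, and 5 were higher in HOLS while none was lower, beside 5.56% higher and 9.79% lower over all tested miRNAs. The median log2 fold change of the family was 0.27. MiR-2285dh was at 2.60, 2.54, 3.13, 3.72 and 2.19 CPM in HOLS and at 0.907 to 1.496 CPM in MONT (median 1.198), a log2 fold change of 1.26 ± 0.23 (SE, edgeR adjusted p = 0.00850). The groups did not overlap, and the same held for miR-2285g and miR-2284ab, with log2 fold changes of 1.01 and 0.92 (edgeR adjusted p = 0.0115 and 0.0312). For miR-2285af the log2 fold change was 0.99 (edgeR adjusted p = 0.0147), but it reached the cutoff of the filter, 0.698 CPM, in HOLS libraries only, the 1 tested miRNA of which this held. It therefore entered the test through the breed where it is high, and its call was lost without a filter (edgeR adjusted p = 0.0561). MiR-2285ba was higher by 1.31 (edgeR adjusted p = 0.0136), with MONT cow 2614 inside the HOLS range. Levels of the 5 were low, from 1.14 to 14.5 CPM on average in HOLS, whereas the most counted member, miR-2284x, was at -0.13. Without cows 1652 and 2614, 3 of the list were higher and the median was -0.01. MiR-2285bk, not tested, had 1 count in each HOLS library and 0 in each MONT library, a difference of single reads.

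**Figure D4:**
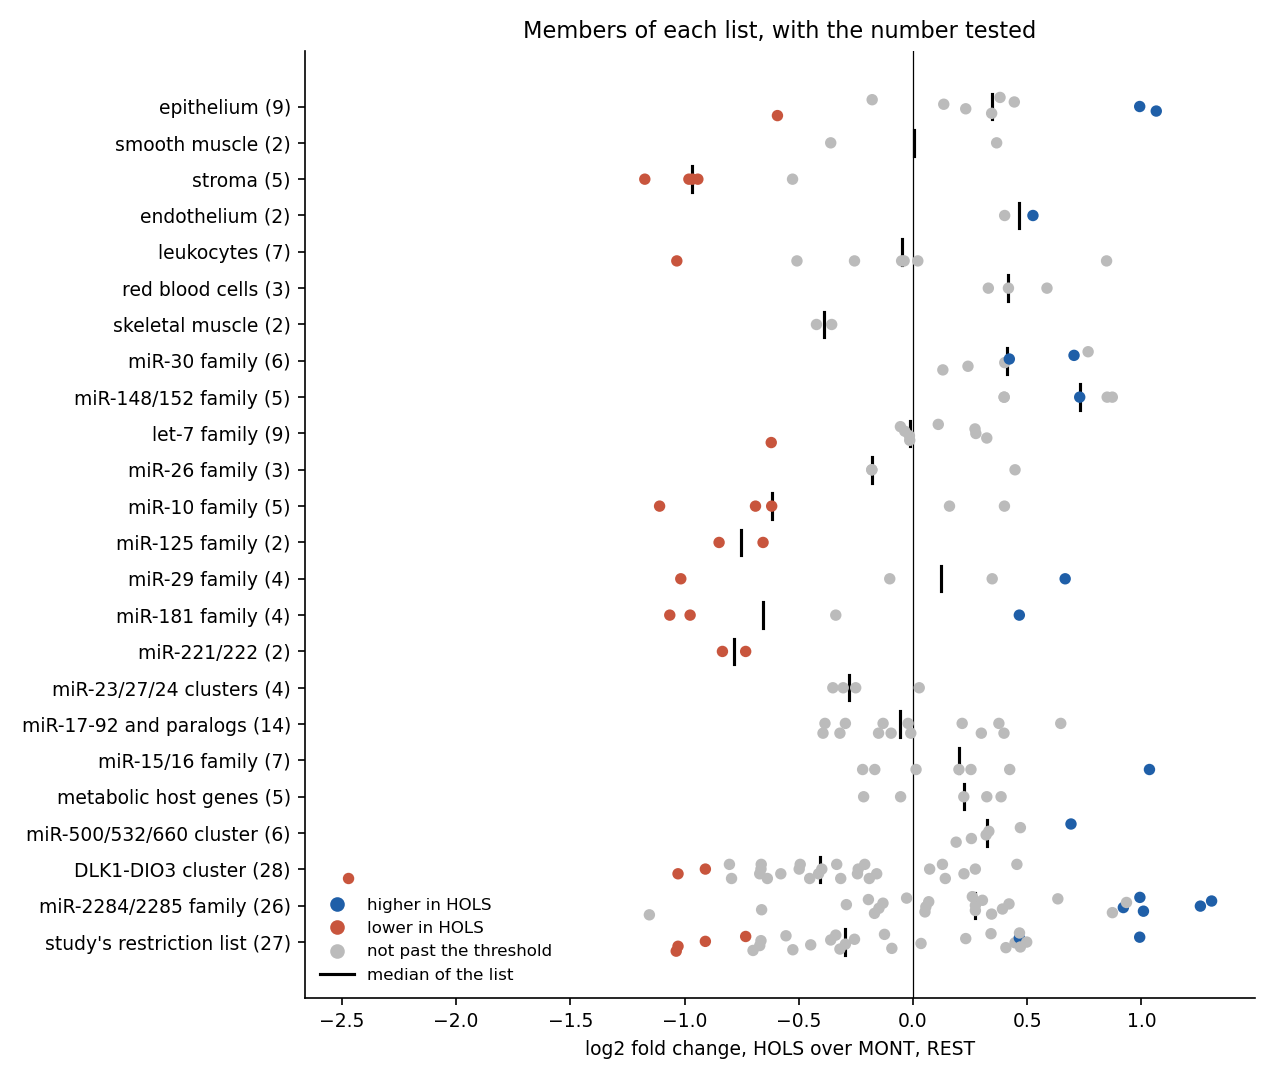
Log2 fold change of HOLS over MONT in REST for the tested miRNAs of each list, with the number tested in brackets. Blue and red points passed the threshold, grey points did not, and black bars are medians, which lie at -0.97 for stroma, -0.62 for the miR-10 family and -0.41 for DLK1-DIO3 and at 0.73 for the family of miR-148 and miR-152 and 0.41 for miR-30.

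Further miRNAs lower in HOLS belong to no list. Predicted miRNA chr21_21957 was at 57.4, 67.4, 85.2, 146 and 86.1 CPM in HOLS and at 157 to 691 CPM in MONT (median 280), a log2 fold change of -1.82 ± 0.37 (SE, edgeR adjusted p = 0.0110). Another predicted on the same chromosome, chr21_22372_star, was at 28.5 ± 9.64 against 76.5 ± 29.4 CPM (SD), a log2 fold change of -1.43 (edgeR adjusted p = 0.00850). Neither overlapped between the breeds. MiR-1388-3p, miR-708 and miR-455-5p did not overlap either, with log2 fold changes of -1.19, -0.94 and -0.75 (edgeR adjusted p = 0.0156, 0.0376 and 0.0140), of which miR-708 was lost without cows 1652 and 2614. Chosen after their values were seen, miR-9, miR-1247-5p, miR-504, miR-31, miR-1271, miR-196b, miR-218 and miR-130a were lower by log2 fold changes from -1.77 for miR-9 to -0.58 for miR-130a. MiR-31 was at 169, 133, 247, 184 and 145 CPM in HOLS and at 207 to 513 CPM in MONT (median 319), with a log2 fold change of -0.97 ± 0.23 (SE, edgeR adjusted p = 0.0148). MiR-9, abundant in brain, was at 1.13 to 2.50 CPM in HOLS and 1.42 to 12.4 CPM in MONT (edgeR adjusted p = 0.0244), and its call was lost without cows 1652 and 2614.

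Called miRNAs that are neighbours in the genome had the same direction. By RefSeq gene names 54 of the 58 could be placed, and 18 pairs of them shared a hairpin gene or had hairpin genes within 10000 bases. In all 18 pairs both miRNAs were higher or both lower in HOLS. These pairs came from 7 groups, namely miR-199a with miR-214, miR-3120 and miR-3604, miR-221 with miR-222, miR-299 with miR-379, miR-99a with let-7c, miR-125a with miR-99b, miR-181c with miR-181d, and miR-200c with miR-141, of which the last was higher in HOLS and the others lower. Neighbours made from one transcript are not independent measurements, and pairs with miR-3604 or miR-299-2 repeat one measurement. Only miRNAs past the threshold were paired, so a neighbour of the other sign that did not pass could not enter. MiR-181a and miR-181b, close neighbours per the study, had log2 fold changes of -0.34 (not past the threshold) and 0.47.

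The 27 miRNAs that the study selected as changed by restriction within HOLS were all tested between the breeds. In REST 2 of them, miR-200c and miR-181b, were higher in HOLS and 4, miR-379, miR-222, miR-299 and miR-299-2, were lower, with a median log2 fold change of -0.30. This count is near the shares of 5.56% higher and 9.79% lower over all tested miRNAs, the more so as miR-299 and miR-299-2 are one measurement. The study chose this list on libraries that include the HOLS ones used here, so the list is not independent evidence of a direction. MiR-143, miR-181a and miR-26b, the most counted of the list, were at -0.36, -0.34 and 0.45 and did not pass.

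Before restriction the same cows gave fewer calls. In CONT 2 of 360 miRNAs tested (0.556%) passed, miR-16a and miR-186, higher in HOLS by log2 fold changes of 0.77 ± 0.14 and 0.75 ± 0.15 (SE, edgeR adjusted p = 0.0415 for both), and both were also among the 58 of REST. With DESeq2 20 passed in CONT, and 73 had an unadjusted p under 0.05 in edgeR. Of the 58 REST miRNAs, 55 had the same sign in CONT, and 39 of them had an unadjusted p under 0.05. Their median absolute log2 fold change was 0.97 in REST, and in CONT the median in the direction of REST was 0.73. Libraries of both periods come from the same cows, so these values are no independent repeat. MiR-1298 was at 3.15 ± 1.01 in CONT and 2.51 ± 0.56 in REST, miR-100 at -1.002 ± 0.30 and -1.11 ± 0.22, and miR-409a at -1.93 ± 0.46 and -2.47 ± 0.49 (log2 fold change ± SE).

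Whether the breed difference changed from CONT to REST was tested with an interaction term in a fit to the 22 libraries of both periods. None of 388 miRNAs passed in edgeR, with or without the cow as a block. In DESeq2, with its own filter on low counts and no block, none passed either. An unadjusted p under 0.05 was found for 3 without and 5 with the block in edgeR, and for 5 in DESeq2. The miRNAs of the 58 whose CONT value lay nearest 0 were miR-196b, miR-299-2, miR-299 and miR-126-3p, at 0.01, 0.05, 0.09 and 0.09 in CONT and -0.87, -1.04, -0.91 and 0.53 in REST. MiR-299-2 and miR-299 had unadjusted interaction p values of 0.00282 and 0.00589 with the block in edgeR, and the lowest adjusted p of any miRNA in that fit was 0.985.

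**Figure D5:**
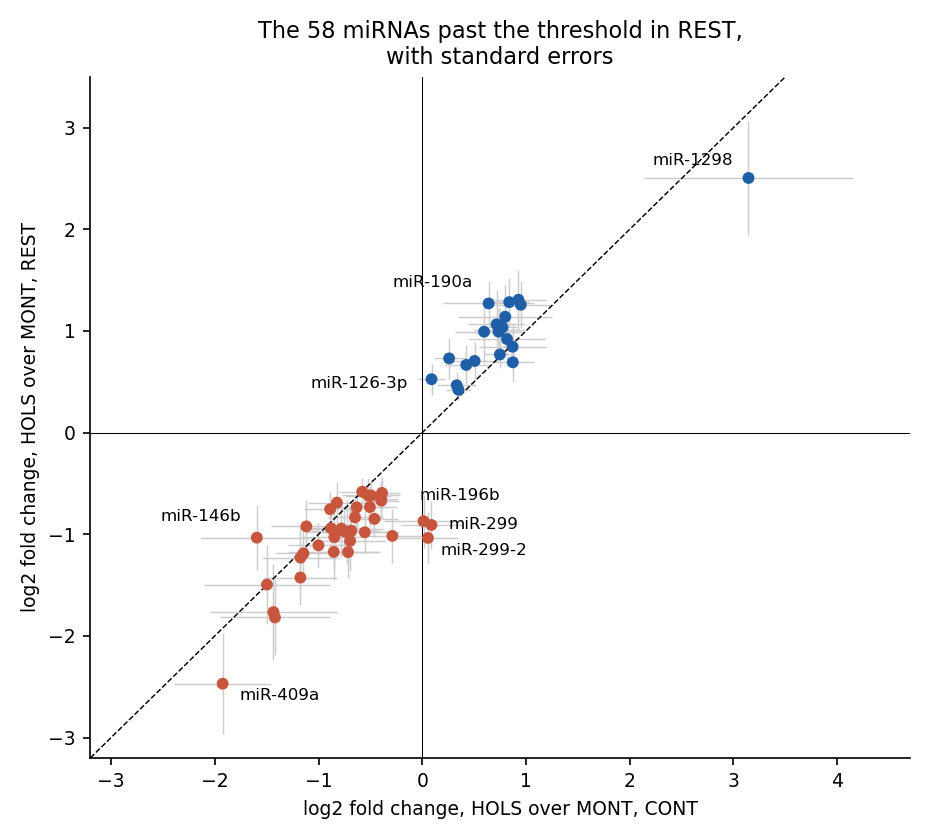
Log2 fold change of HOLS over MONT in REST against that in CONT for the 58 miRNAs past the threshold in REST, with standard errors as bars and a dashed line of equal values. Most points lie near or beyond the line in the same quadrant, whereas miR-299, miR-299-2 and miR-196b lie at about 0 in CONT.

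The MONT libraries varied more among themselves than the HOLS libraries. The study counted more too-short and adapter reads in the MONT libraries, and a smaller share of clean reads. Library quality thus goes with breed, and its part in this spread and in the 58 calls was not tested. In edgeR the common biological coefficient of variation came to 0.227 in HOLS, 0.357 in MONT and 0.310 in MONT without cow 1652, and 265 of the 378 miRNAs had a larger SD of log2(CPM + 1) in MONT. Cow 1652 had the highest MONT value of 31 of the 37 miRNAs lower in HOLS and the lowest of 9 of the 21 higher ones. MONT cow 9615 had the lowest value of 23 of the 37, the nearest to HOLS. Without cow 1652 the breeds differed in 49 miRNAs, 15 higher and 34 lower in HOLS, and 47 of the 49 were among the 58. Without cow 9615 they differed in 77. With libraries of at least 11000000 counts only, which leaves out cow 9615 and 2 other MONT cows, 82 miRNAs passed, 31 higher and 51 lower in HOLS, and 50 of them were among the 58.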

How the data were processed

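The authors sequenced TruSeq small RNA libraries of mammary biopsies, removed adapters, kept reads by size, quantified them with ncPRO-seq and identified miRNAs with miRDeep2 on the bovine genome and miRBase. The deposited counts are whole, unnormalized read counts per miRNA, in 1 table per breed. The tables also hold the authors' normalized counts, scaled within a breed with DESeq2 (version 1.18.1 per the submitters' processing notes), and the authors' fold changes and p-values between CONT and REST, and none of these columns were used. How reads shared by near-identical miRNAs were counted is not given in the sources used here. A further HOLS cow named in the labels was not analysed here. The labels and tables used here name no batch.

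The 2 tables were joined by miRNA name. REST libraries were tested between breeds with edgeR 4.0.16 in R 4.3.3 (filterByExpr with a minimum count of 10, TMM over the 11 libraries, quasi-likelihood F test, Benjamini-Hochberg adjustment over all tested miRNAs, threshold 0.05). CPM are counts scaled to a TMM-adjusted library size of 1000000. Alternatives used limma 3.58.1, DESeq2 1.42.0, other scalings and filters, and each library left out. Scripts were tested on simulated data. Precision per library follows from 7817027 to 18913916 counts, and PCR reads carry no molecular identifiers.

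Libraries of 1 cow before and after restriction are paired, since the labels give both the cow's number. Their deviations from the group means correlated with r from 0.24 to 0.498 in HOLS, and in MONT with -0.205 for cow 9615 and 0.105 to 0.697 for the others. No cow is in both breeds, so the pairing bears only on the interaction of breed and period, where the cow as a block left the count of calls at 0.

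Named are the 10 highest and 10 lowest log2 fold changes past the threshold without overlap between breeds, the 5 most counted miRNAs of each breed, the most counted miRNA of each list, and up to 4 miRNAs past the threshold per list. Others are named as chosen after their values were seen. The comparison, the lists and this rule were chosen with earlier results of these data known. Neighbouring genes come from RefSeq (ARS-UCD2.0), whose build differs from that of the files, so no coordinates are given. The list names miR-203, miR-206, miR-9-5p, miR-9-3p, miR-23b-3p, miR-329b, miR-668 and miR-889 have no row in the tables.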

Additional observations from a re-analysis of the deposited data

Results flagged for a closer look

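Examined were 132 groups of values, namely the CPM of each named miRNA, the total counts and the first axis, each within a breed. For 11 groups, all of CPM, the highest or lowest library lay farther from the others than Dixon's 95% critical value allows. At 1 in 20, 6.6 would be flagged in independent groups of normally distributed values. The groups are not independent, since some of the miRNAs are neighbours. CPM need not be normally distributed, and many of the miRNAs were named by their values in these libraries. The 11 therefore cannot be set against 6.6 as a measure of chance. Cow 1652 held 5 of them in MONT, all as the highest value: predicted chr21_21957 at 690.72 CPM (other cows 157 to 293), chr21_22372_star at 132.14 CPM (47.5 to 76.9), miR-181c at 788.18 CPM (189 to 351), miR-181d at 83.65 CPM (19.95 to 41.9) and miR-708 at 20.117 CPM (7.26 to 9.45). All 5 miRNAs were among those lower in HOLS, and without cow 1652 each of them still passed the threshold. Cow 2614 was apart for miR-2285ba at 2.6648 CPM (0.863 to 1.42).

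In HOLS, cow 2182 was apart for 3 miRNAs, with let-7a-5p at 29034 CPM (17352 to 20214), miR-7 at 7.9907 CPM (15.6 to 17.1) and miR-99a-5p at 975.42 CPM (1432 to 1516). Cow 1155 was apart for chr21_22372_star at 45.114 CPM (20.6 to 26.8) and cow 9195 for miR-455-5p at 10.487 CPM (12.8 to 13.5). In each of these 2 the value was the HOLS one nearest to or farthest from the MONT range, respectively, and both miRNAs passed the threshold without that cow. No cause of these single values was tested.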

How the results depend on the processing

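The 58 calls of REST became 97 at a threshold of 0.10 and ranged from 38 (without HOLS cow 1165) to 77 (without MONT cow 9615) when 1 library was left out. In the other settings they lay between 39 and 83 (83 in DESeq2, 37 higher in HOLS and 46 lower). With library size only, 13 of 54 calls (24.1%) were higher in HOLS, beside 36.2% in the main fit, and the median log2 fold change of all miRNAs was then -0.15 instead of -0.03. With quality weights 47.3% of 74 calls, and with the threshold of 0.10 48.5%, were higher, and without HOLS cows 8200 and 2182 26.2% and 47.4%. Without MONT cows 1652 and 2614 the share was 23.1%, a setting chosen after seeing the data, as was that of libraries of at least 11000000 counts. The 21 higher calls became 11 without HOLS cow 8200, 12 without HOLS cow 9195, 13 with library size only, 32 without MONT cow 9615, 35 with quality weights and 37 in DESeq2. The 37 lower calls became 24 without HOLS cow 1165. No miRNA of the 58 changed sign in any of the 27 settings. In every fit with 1 library left out 30 of the 58 were called, and 24 of these in every setting.

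Among the named miRNAs, signs changed for 3 that never passed the threshold: miR-142-5p (0.0223 with quality weights, 0.0020 without MONT cows 1652 and 2614, and from -0.1882 to 0.0915 with 1 library left out), miR-26a (0.0274 with quality weights) and let-7a-5p (from -0.1938 to 0.0269 with 1 library left out). Signs of tested miRNAs that were neither named nor called were not compared. Over the other comparisons of a named miRNA with a setting, 1532 kept their sign and their side of the threshold, 168 lost a call and 22 gained one. The calls lost in 10 or more of the 27 settings were those of miR-126-3p, miR-141, miR-146b, miR-181b, miR-181d, miR-200c, miR-2284ab, miR-29c, miR-362-5p, miR-379 and miR-99b. In CONT the 2 calls became 20 in DESeq2 and 1 with library size only, both tried after seeing the data. The paired fit of the interaction, with the cow as a replicate block, gave 0 calls, as did the fit without it. The difference in mean total counts ranged from 2352146 to 4571524 without 1 library (exact permutation p from 0.05556 to 0.3381). MiRNAs below the filter on low counts could not be compared at this depth. The cause of the changes was not tested.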
